A study of Mus musculus with 12 samples.

Results

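The cluster from miR-379 to miR-410 is a run of miRNA hairpins in the imprinted Dlk1-Dio3 locus on mouse chromosome 12. The 32 hairpins described here were taken by name from the GENCODE annotation, and every sequenced tag that matched 1 of them exactly over its whole length was counted for that hairpin and for its 5′ or 3′ arm (5p and 3p). They are 32 of the 1087 annotated miRNA names, of which 705 had at least 1 read. Of the 32, 31 had a read, on 60 arms, and 47 arms of 29 members had at least 10 counts in at least 2 libraries and entered the tests, among 469 arms in all. Hairpins of the same interval that the rule does not name, such as miR-134 and miR-485, are not among the 32.

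The libraries came from size-selected small RNA of the hippocampus of individual male C57BL/6NCrl mice, 6 to 8 weeks old. Untreated mice (NT) were compared with mice killed after electroconvulsive shock (ECS), a current that depolarizes neurons throughout the brain and models a burst of neuronal activity, either early (at 0.5 h, 1 h or 3 h) or late (at 6 h or 24 h). Each of the 6 groups held 2 libraries, 1 from each of 2 time courses, here called NT-1 and NT-2, 0.5h-1 and 0.5h-2, and so on. No genetic change is named for the mice, and no sham-shocked group was analysed here.

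In placental mammals the cluster is transcribed from the maternally inherited chromosome as long non-coding RNA, from which many hairpins are cut. Each hairpin gives a 5p and a 3p strand, of which usually 1 is kept in the silencing complex, and nucleotides 2 to 8 of the kept strand, the seed, pair with target mRNAs. The cluster is known for its high expression in brain, and in cultured neurons its transcription is induced by activity through the transcription factor Mef2 and is needed for activity-dependent growth of dendrites.

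The members lay on the plus strand at chr12:109709060-109743795 (GRCm38), a stretch of 34736 nt. The 10 members from miR-382 to miR-410 lay within the lincRNA gene Mirg, 6 of these in an exon of at least 1 of its transcripts and 4 in introns of every transcript that spanned them. The other 22 lay in no annotated host transcript on that strand. The gap between neighbours varied between 20 nt (miR-679 to miR-1193) and 5568 nt (miR-539 to miR-382).

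The mature sequences below are those of the 12 arms with the highest mean share of miRNA reads, in that order, as given by RefSeq (GRCm38.p6), with the seed in capitals. They are shown because these arms held 84.6% of all reads of the cluster.
miR-376a-3p: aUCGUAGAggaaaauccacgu
miR-411-5p: uAGUAGACcguauagcguacg
miR-379-5p: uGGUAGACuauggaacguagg
miR-541-5p: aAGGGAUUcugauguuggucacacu
miR-382-3p: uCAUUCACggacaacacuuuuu
miR-323-3p: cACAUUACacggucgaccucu
miR-300-3p: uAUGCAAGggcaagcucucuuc
miR-409-3p: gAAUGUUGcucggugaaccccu
miR-382-5p: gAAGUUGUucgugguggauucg
miR-666-5p: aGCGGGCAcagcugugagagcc
miR-410-3p: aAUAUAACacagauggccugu
miR-376b-3p: aUCAUAGAggaacauccacuu

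No seed was shared among these 12. In the wider cluster, the minor 3p arms of the neighbours miR-379 and miR-411 shared the seed AUGUAAC, and miR-381-3p and miR-539-3p shared AUACAAG at their most used starts. RefSeq gives miR-379-5p and miR-1193-5p the same seed, GGUAGAC. In these libraries, however, 83.2% of miR-1193-5p reads began 1 nt before the RefSeq start, with the seed UGGUAGA. The miR-410-3p seed, AUAUAAC, is also that of miR-344d-3p and miR-344e-3p, which lie outside the cluster. The most abundant tag of each of the 4 arms that shared a seed follows in the letters of the sequencing reads, with the seed again in capitals.
miR-379-3p: tATGTAACatggtccactaa
miR-411-3p: tATGTAACacggtccactaa
miR-381-3p: tATACAAGggcaagctctctgt
miR-539-3p: cATACAAGgataatttcttttt

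Depth and quality differed between the 12 libraries. Reads matching miRNA hairpins numbered from 439336 (6h-1) to 4282006 (NT-2), and made up 10.1% to 32.7% of the accepted reads in the first time course and 50.9% to 69.6% in the second. The study's table of library composition lists the totals of the untreated libraries in the opposite order to the sample labels, which were kept here. As labelled, miRNAs made up 29.1% of the accepted reads in NT-1 and 56.5% in NT-2, and the results that rest on this order are given below with the NT libraries exchanged as well. NT-1 stood apart through short reads. In it 51.4% of the miRNA reads and 60.5% of the reads of the cluster were 18 or 19 nt long, against 6.41% to 19.6% of the reads of the cluster in the other 5 libraries of the first time course and 2.53% to 4.79% in the second. The neuronal miRNAs miR-124, miR-128 and miR-9 were present in every library and summed to between 5.82% and 30.3% of miRNA reads. In whole tissue, fewer cells of a type and less RNA per cell cannot be told apart.

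The cluster gave 553078 reads over the 12 libraries, spread very unevenly over its members. miR-376a gave 125290, miR-379 gave 72659, miR-411 gave 65380 and miR-382 gave 60611, and these 4 members held 58.6% of the reads. The 10 most abundant members held 85.6%. Of the 32 members, 13 had at least 10000 reads and 9 had under 1000. miR-679 had 18 reads, miR-758 had 12 and miR-654 had 0, which allows up to 3 counts over all libraries. A read was present in every library for 25 members. Position along the cluster did not order the members by abundance (Spearman's rho 0.02 across the 31 members with a read, a description only, since the members share libraries), and the 16 hairpins nearest the start held 38.0% of the reads.

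Strand choice also differed from hairpin to hairpin. Of the 31 members with reads, 12 gave most of them from the 5p arm and 19 from the 3p arm, and in 29 both arms were sequenced. The choice was nearly complete in miR-379 (99.8% from 5p), miR-541 (99.5% from 5p), miR-376a (0.243% from 5p) and miR-410 (0.762% from 5p). miR-380 gave its arms almost equally, with 6045 reads from 5p and 5851 from 3p. miR-382 (34.6% from 5p), miR-409 (33.5%) and miR-377 (41.9%) also used both arms. Only 65 reads of the cluster, 0.0118%, came from tags shared with another miRNA, between miR-299a and miR-299b.

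**Figure D1:**
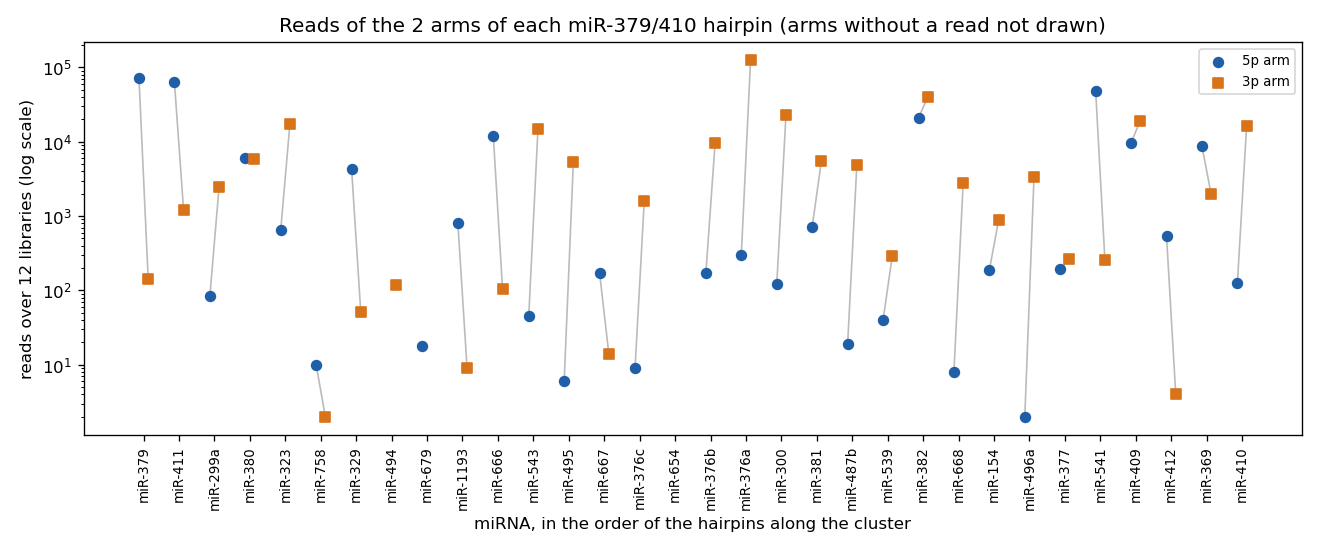
Reads summed over the 12 libraries for the 5p arm (circles) and 3p arm (squares) of each hairpin, on a log axis, in the order of the hairpins along the cluster from miR-379 to miR-410, with arms of 1 hairpin joined by a line. miR-376a-3p is highest at 124986 reads, miR-654 has no point, and the 2 arms of miR-380 lie nearly on top of each other.

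As a share of all miRNA reads, the cluster was higher in the first time course than in the second. Libraries of the first time course gave shares of 2.19% (NT-1, the lowest) to 3.69% (6h-1), median 2.65% and mean 2.87% ± 0.662 (SD, n = 6). Those of the second gave 1.09% (24h-2) to 1.96% (6h-2), median 1.66% and mean 1.55% ± 0.352 (SD, n = 6). The groups did not overlap as labelled, and the second time course was lower at 6 of 6 time points. With NT-1 and NT-2 exchanged the ranges overlapped, at 1.77% to 3.69% and 1.09% to 2.19%, and the means were 2.80% and 1.62%. No test is given, because the members were chosen with results of these data known. Counting error was small beside these differences, as the Wilson 95% interval was 3.64% to 3.75% in 6h-1 and 1.08% to 1.10% in 24h-2. As a share of all accepted reads the order of the means turned, at 0.697% ± 0.182 for the first time course against 0.902% ± 0.274 for the second (SD, n = 6 each), since miRNAs made up a larger part of the accepted reads in the second. The share after ECS was above that of the untreated library in 5 of 5 libraries of the first time course and in 1 of 5 of the second, as labelled.

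The part of the cluster's reads taken by its most abundant arm, miR-376a-3p, varied widely. It ran from 4.34% (3h-2) to 38.8% (0.5h-1), and was 9.83% in NT-1 and 10.3% in NT-2. In the first time course it was 21.5% to 38.8% in the 5 libraries after ECS. In the second it was 36.5% in 0.5h-2 and 36.0% in 6h-2, but 8.91%, 4.34% and 11.1% at 1, 3 and 24 h. Without miR-376a-3p the cluster still took a smaller share of miRNA reads in the second time course, 1.25% ± 0.226 against 2.00% ± 0.523 (SD, n = 6 each).

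**Figure D2:**
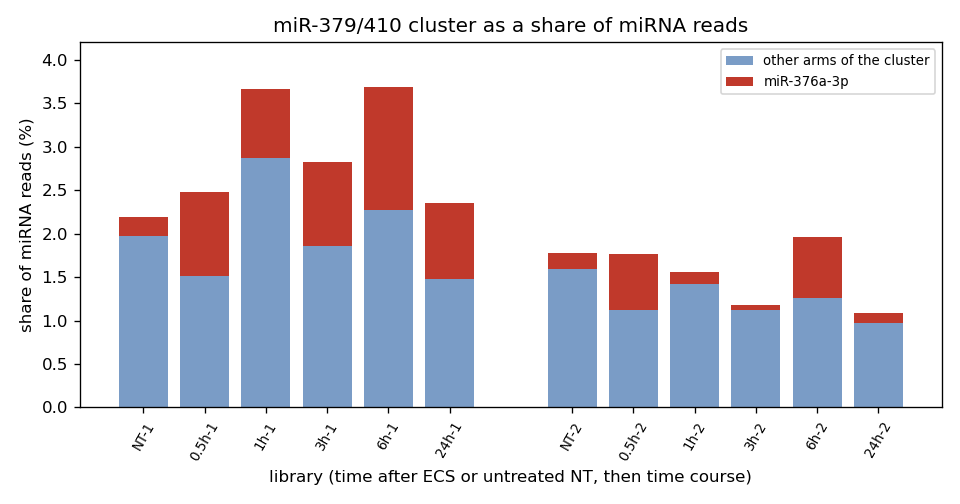
Percent of all miRNA reads that came from the cluster in each library, with miR-376a-3p (red) stacked on the other arms (blue). The second time course stays at or under 1.96% while the first starts at 2.19%, and the red part is largest in 6h-1.

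Single arms are given as CPM (a count scaled to a common library size of miRNA reads), with TMM factors, which set the typical arm equal across libraries. miR-376a-3p, a member of the miR-376 family whose transcripts are known targets of RNA editing in brain (edited tags differ from the genome and were not counted), ran from 1432 (NT-1) to 11355 (3h-1), median 8808 CPM in the first time course. In the second it ran from 764 (3h-2) to 10897 (6h-2), median 1841 CPM. The 2 ranges overlapped almost completely. miR-376b-3p, its near neighbour, ran from 147 (NT-1) to 1154 (6h-1), median 463 CPM in the first time course and from 52.1 (3h-2) to 1147 (6h-2), median 193 CPM in the second, again with the lowest value at 3h-2 and the highest of that time course at 6h-2.

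miR-411-5p ran from 2068 (0.5h-1) to 4941 (NT-1), median 3718 CPM in the first time course and from 648 (0.5h-2) to 4398 (6h-2), median 1481 CPM in the second. miR-379-5p, from the first hairpin of the cluster, ran from 666 (NT-1) to 6342 (3h-1), median 2439.5 CPM and from 949 (0.5h-2) to 3666 (6h-2), median 3037 CPM. NT-1 held the lowest miR-379-5p of the 12 libraries and the highest miR-411-5p, while in the second time course both arms were lowest in 0.5h-2 and highest in 6h-2. miR-541-5p ran from 835 (NT-1) to 2923 (6h-1), median 1314 CPM in the first time course, where only 6h-1 was above 1482 CPM, and from 834 (6h-2) to 2662 (3h-2), median 1674 CPM in the second. miR-382-3p ran from 352 (NT-1) to 1233 (3h-1), median 875 CPM and from 1049 (6h-2) to 2477 (NT-2), median 1541 CPM. The other arm of that hairpin, miR-382-5p, ran from 271 (3h-1) to 1087 (24h-1), median 437 CPM and from 222 (6h-2) to 1126 (1h-2), median 772 CPM. The arms of the miR-382 hairpin had their lowest values in different libraries of the first time course and both in 6h-2 in the second.

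miR-300-3p varied little in the second time course. There it stayed between 867 CPM (3h-2) and 988 CPM (NT-2), median 919.8. In the first, the 5 libraries after ECS lay between 430.0 and 518 CPM and NT-1 at 1095 CPM, so that without NT-1 the time courses did not overlap. miR-666-5p showed the same place for NT-1, which had 1837 CPM against 382 to 824 CPM in the rest of its time course. miR-410-3p, from the last hairpin, had its lowest value in NT-1, 80.4 CPM, and otherwise ran from 282 (1h-2) to 1542 CPM (6h-2). miR-323-3p ran from 175 (NT-1) to 2335 (3h-1), median 787 CPM in the first time course and from 231 (0.5h-2) to 905 (6h-2), median 490.1 CPM in the second. miR-409-3p ran from 555 (3h-1) to 1208 (24h-1), median 659.8 CPM and from 257 (6h-2) to 958 (1h-2), median 519 CPM. Both overlapped widely between time courses.

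**Figure D3:**
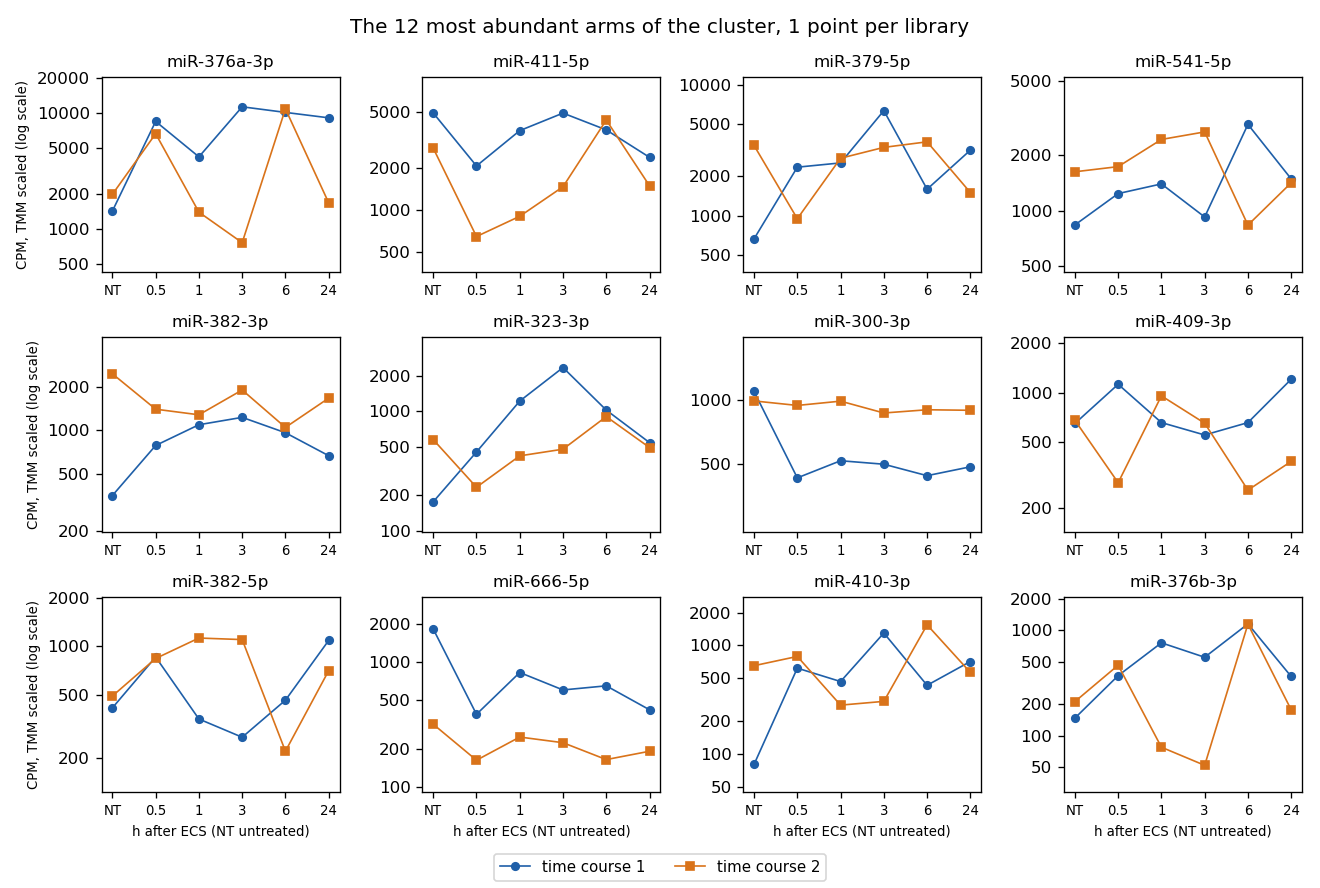
TMM-scaled CPM of the 12 most abundant arms, 1 point per library, on log axes that differ between panels, with the time points spaced evenly rather than to scale. The 2 time courses follow different paths in most panels, and miR-376a-3p, miR-376b-3p and miR-323-3p have both 6h libraries above both NT libraries.

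The first comparison asked which arms differed between the 2 time courses, with the time point as a term in edgeR's quasi-likelihood test. In the study the time courses are biological replicates of each other, not a contrast of treatments, and it reports a pronounced batch effect between them. Its authors judged that the sequencing was unlikely to measure expression changes accurately, and turned to PCR-based assays for those. Of the 47 arms of the cluster, 8 were higher and 3 were lower in the second time course at a Benjamini-Hochberg adjusted p under 0.05. Over all 469 arms tested, 32.4% passed, 20% higher and 12.4% lower, so the cluster's 23.4% was not above the background. The median log2 fold change was 0.18 over the arms of the cluster and 0.29 over all arms. With total miRNA counts in place of TMM, 15 arms passed (34.5% of all arms), 6 higher and 9 lower, against 10.4% and 24.1% of all arms, and the medians became -0.47 and -0.30, so the direction of the typical arm depends on the scaling. Of the 11 arms called with TMM, 9 were called in the same direction with total counts. DESeq2 called 20 arms of the cluster, 11 higher and 9 lower, against 47.3%, 26.7% and 20.7% of all arms. Without 1h-1, 7 arms of the cluster passed (19.8% of all arms). With NT-1 and NT-2 exchanged, which sets each in the other time course, 0 arms of the cluster and 0 of the 469 arms passed in edgeR's test (0%). In that fit 7 and 76 arms had an unadjusted p under 0.05. Without NT-1, where the time point term leaves NT-2 with no partner and the other 5 time points carry the comparison, 12 arms of the cluster passed (30.2% of all arms). The values below follow the labels.

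The largest rise was that of miR-543-3p, which ran from 0 (6h-1) to 153 (0.5h-1), median 35.9 CPM in the first time course and from 408 (6h-2) to 1274 (24h-2), median 665.5 CPM in the second. Every library of the second lay above every library of the first (log2 fold change 4.10, SE 0.74, edgeR adjusted p = 0.00207). miR-495-3p ran from 34.3 (NT-1) to 127.1 (0.5h-1), median 47.6 CPM and from 135 (1h-2) to 449.8 (6h-2), median 246 CPM. Its time courses did not overlap either (log2 fold change 2.12, SE 0.50, edgeR adjusted p = 0.00771). miR-154-3p, a rare arm, ran from 0 (6h-1) to 9.81 (24h-1), median 4.14 CPM and from 29.1 (0.5h-2) to 102 (6h-2), median 46.9 CPM, and was again separate (log2 fold change 3.33, SE 0.65). miR-409-5p ran from 25.6 (NT-1) to 263 (24h-1), median 79.6 CPM and from 207 (6h-2) to 616 (3h-2), median 429 CPM. It overlapped at the edges but was higher in the second time course at 6 of 6 time points (log2 fold change 2.35, SE 0.57). miR-299a-3p, with the smallest rise, ran from 21.1 (6h-1) to 59.3 (24h-1), median 35.9 CPM and from 38.6 (6h-2) to 133.2 (1h-2), median 113 CPM (log2 fold change 1.35, SE 0.45, edgeR adjusted p = 0.0329). That call was lost with total-count scaling, where the fold change was 0.73 with an adjusted p of 0.257.

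The remaining rises, of miR-377-3p, miR-539-3p and miR-494-3p, were in rare arms that passed the count filter through the second time course alone, so a difference in that direction was built into their selection. miR-377-3p had 19 reads in the first time course and 249 in the second. It ran from 0 (0.5h-1) to 8.10 (NT-1), median 0.586 CPM and from 5.64 (NT-2) to 29.2 (6h-2), median 12.2 CPM, with overlap and a log2 fold change of 3.51 (SE 1.01). miR-539-3p had 15 and 275 reads and ran from 0 (6h-1) to 2.51 (0.5h-1), median 1.72 CPM and from 3.50 (6h-2) to 31.0 (0.5h-2), median 11.7 CPM, without overlap and with 3.32 (SE 0.72). miR-494-3p had 13 and 104 reads and ran from 0 (NT-1) to 2.01 (0.5h-1), median 1.25 CPM and from 4.10 (NT-2) to 7.20 (1h-2), median 5.41 CPM, again without overlap, with 2.39 (SE 0.74), and its call was lost with total-count scaling (adjusted p 0.0708). In all, 8 of the 47 arms passed through the second time course alone and 0 through the first alone. With at least 10 counts required in every library, 27 arms of the cluster were tested and 6 passed (40.1% of all arms under that filter), as miR-299a-3p, miR-409-5p and miR-495-3p were higher (23.6%) and 3 arms lower (16.5%).

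The arms that fell were miR-666-5p, miR-381-5p and miR-1193-5p. miR-666-5p ran from 382 (0.5h-1) to 1837 (NT-1), median 621 CPM in the first time course and from 164 (0.5h-2) to 318 (NT-2), median 209.9 CPM in the second, with no overlap (log2 fold change -1.65, SE 0.46, edgeR adjusted p = 0.0152). miR-381-5p ran from 29.9 (NT-1) to 128.4 (6h-1), median 38.3 CPM and from 8.21 (0.5h-2) to 29.2 (6h-2), median 14.0 CPM, with its lowest first-course value just above the highest of the second (log2 fold change -1.67, SE 0.44). miR-1193-5p ran from 22.4 (NT-1) to 74.3 (1h-1), median 55.1 CPM and from 7.20 (1h-2) to 30.4 (6h-2), median 12.7 CPM, and only the NT pair went against the fall (log2 fold change -1.91, SE 0.54). Counted by separation alone, 6 arms of the cluster had all 6 libraries of the second time course above all 6 of the first, against 9.38% of all arms, and 2 arms had them all below, against 7.04%. Among these 6 were miR-494-3p and miR-539-3p, which had passed the count filter through the second time course alone, so that direction was built into their selection.

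**Figure D4:**
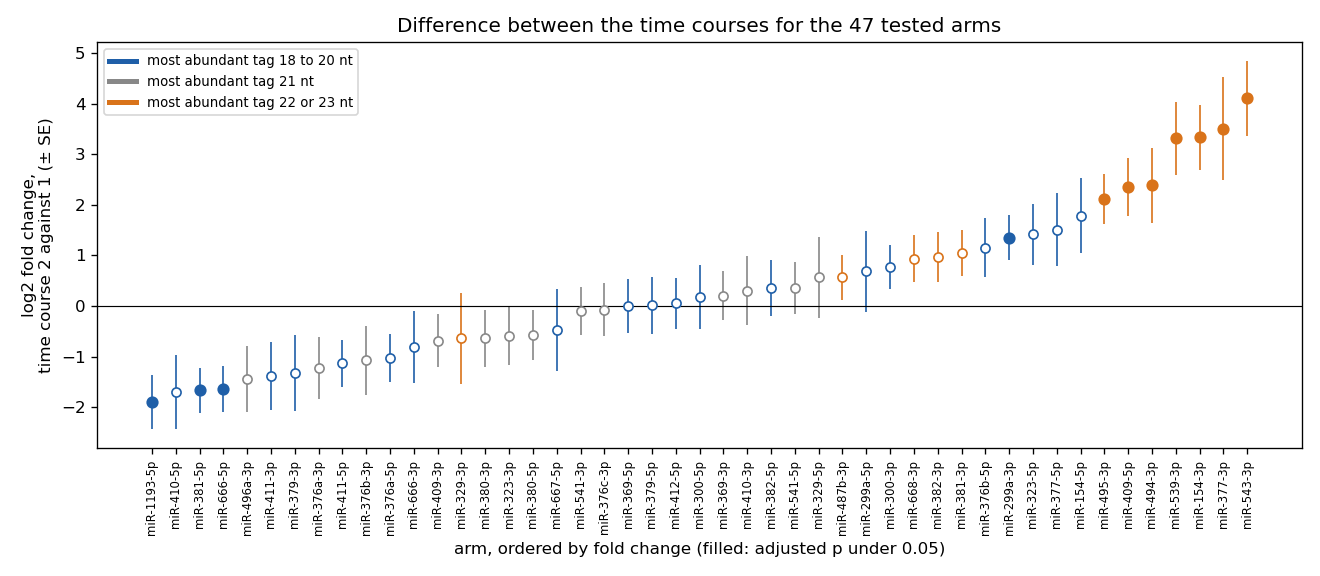
Log2 fold change of the second against the first time course, with its SE, for the 47 tested arms in ascending order, filled where the edgeR adjusted p was under 0.05 and coloured by the length of the most abundant tag. Orange points (22 or 23 nt) fill the right end, up to 4.10 for miR-543-3p, and the 3 filled points at the left are arms whose main tag had 19 or 20 nt.

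Tag length moved with this difference. Of the 12 arms whose most abundant tag had 22 or 23 nt, 7 were called higher, 3 of which had passed the count filter through the second time course alone, while the 13 arms with a 21 nt tag had no call. Across the 47 arms the fold change and that length had a Spearman's rho of 0.48, a description in which both measures come from the same counts. With the annotated RefSeq length, which does not depend on these reads, rho was 0.30 across 44 arms of the cluster and 0.28 across 299 arms outside it. Of the 35 tested arms of the cluster with a RefSeq length of 22 nt or more, 7 were called higher, beside 26.1% of the 230 such arms outside it. Among these 7, miR-377-3p and miR-494-3p had passed the count filter through the second time course alone. Both rho values for the cluster include arms that passed in that way. Tags of the cluster averaged 20.1 nt in the first time course and 20.9 nt in the second, and 45 of the 47 arms had a longer mean tag in the second. Reads of 22 nt or more made up 3.46% ± 3.47 of the cluster's reads in the first time course against 24.6% ± 8.42 in the second (SD, n = 6 each). The part of tag length in the fold changes was not tested.

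Other measures of the libraries moved with the time courses too. The 3 vessel miRNAs miR-143, miR-145 and miR-126, all detected in every library, summed to 6.30% to 14.5% of miRNA reads in the first time course and 0.565% to 1.65% in the second. The 3 neuronal miRNAs summed to 12.3% to 30.3% and 5.82% to 16.4%, with overlap. The 5 blood-cell miRNAs took 0.133% to 1.16% and 0.0372% to 0.257%, and miR-223 among them was at 0 in some libraries. Oligodendrocyte miRNAs (2 of 2 detected) took 0.273% to 1.40% and 0.392% to 1.82%, muscle miRNAs (3 of 3) 0.258% to 1.10% and 0.771% to 1.69%, and choroid plexus miRNAs (3 of 4) 0.0566% to 0.654% and 0.0172% to 0.396%. Their part in the differences between time courses was not tested.

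Of 18 hairpins of the cluster with both arms tested, 8 had fold changes of opposite sign, beside 44.7% of 123 hairpins outside it. In none of the 8 did both arms pass the threshold. In miR-409 the 5p arm rose and the 3p arm had a log2 fold change of -0.69 (SE 0.52), which did not pass. In miR-381 the 5p arm fell and the 3p arm stood at 1.05 (SE 0.45), which did not pass either. Over the hairpins of the cluster, 7 of 26 tested 3p arms were called higher and 0 lower, where 17.7% and 13.7% of all tested 3p arms were. Of these 7, 3 had passed the count filter through the second time course alone. Of 21 tested 5p arms 1 was called higher and 3 lower, where 22.2% and 11.1% of all tested 5p arms were.

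The share of a hairpin's reads that came from its 5p arm needs no scaling between libraries, and gave a second view of the same difference. The hairpins of miR-409 (chr12:109743158-109743236) and miR-381 (chr12:109726822-109726896) are shown as they stand in GRCm38, with the most abundant tag of each arm in capitals, since these 2 had the largest differences between the time courses.
miR-409: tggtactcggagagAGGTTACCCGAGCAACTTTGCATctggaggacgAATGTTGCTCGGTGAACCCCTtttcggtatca
miR-381: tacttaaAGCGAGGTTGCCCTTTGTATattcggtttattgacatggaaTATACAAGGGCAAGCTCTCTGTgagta

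miR-409 gave 3.78% (NT-1) to 17.9% (24h-1) of its reads from 5p across the first time course, mean 10.9% ± 5.95 (SD, n = 6). Across the second it gave 35.3% (1h-2) to 62.5% (0.5h-2), mean 46.1% ± 10.1 (SD, n = 6). The ranges did not overlap as labelled. In miR-381 the 5p share went the other way, from 11.9% (NT-1) to 62.2% (6h-1) in the first time course and from 4.03% (3h-2) to 10.1% (6h-2) in the second, means 30.9% ± 17.0 and 6.13% ± 2.27 (SD, n = 6 each). The groups did not overlap here either. miR-382 had the next largest difference, with 18.0% (3h-1) to 62.0% (24h-1) in the first time course and 16.5% (NT-2) to 46.7% (1h-2) in the second, means 40.5% ± 18.0 and 30.7% ± 11.9 (SD, n = 6 each). Its ranges overlapped, and an exact permutation test, which swaps the libraries of a time point in all 64 ways, gave p = 0.406 (two-sided). miR-409 and miR-381 each moved one way at 6 of 6 time points, which gives the smallest p that test allows, 0.03125. So did miR-323, picked out after its values were seen, with 2.11% ± 2.26 and 5.37% ± 2.47 from 5p (SD, n = 6 each) and overlapping ranges. These were 3 of 21 members tested, against 20.6% of the 175 miRNAs tested. After Benjamini-Hochberg adjustment over the 175 miRNAs the exact permutation test gave all 3 a p of 0.152, and 0 of the 175 passed. With a smallest p of 0.03125, a pass would have needed most of the 175 miRNAs at that p. The adjusted result therefore cannot decide whether these shares differed. With NT-1 and NT-2 exchanged, 1 of the 21 members had the smallest p, and the ranges of miR-409 and miR-381 overlapped. Matching only the first 18 nt gave 5 of 22 members at the smallest p. The shares of all miRNAs under these alternatives are not given here, so the counts cannot be set against a background.

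**Figure D5:**
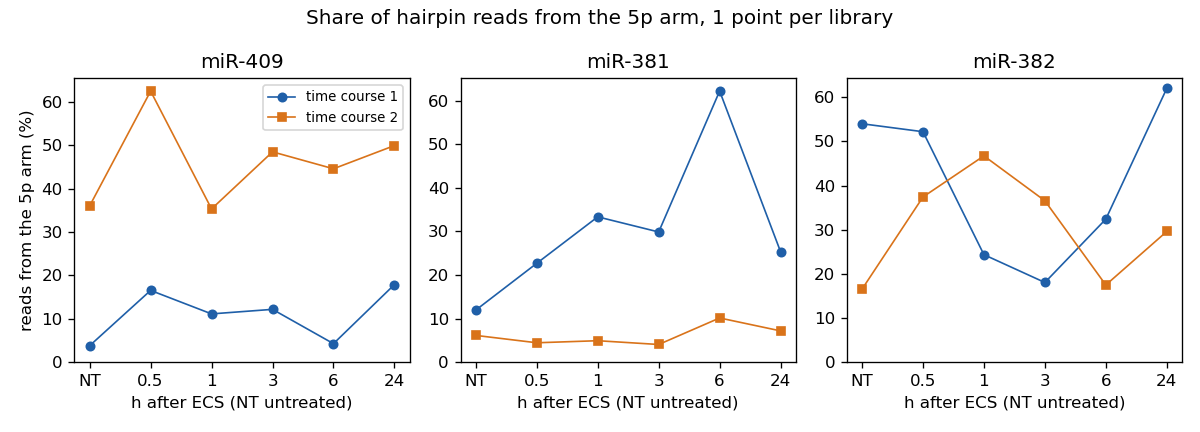
Percent of a hairpin's reads from the 5p arm in each library for miR-409, miR-381 and miR-382, with time points spaced evenly. The second time course (squares) lies above the first in miR-409 and below it in miR-381 at all 6 time points, and on both sides of it in miR-382.

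The 5′ end of a mature miRNA sets its seed, and most arms of the cluster used 1 start. Among the 32 arms with at least 500 reads, the most used start held a median of 97.5% of the reads, and in 11 arms it held under 90%. Of 50 arms with at least 10 reads and a RefSeq mature sequence, 41 began most often at the RefSeq start and 9 elsewhere. miR-411-5p was divided almost equally, with 49.5% of its reads beginning 1 nt before the RefSeq start and 49.2% at it. miR-382-3p began 2 nt before the RefSeq start in 98.0% of reads, and miR-496a-3p 2 nt after it in 84.4%. The tags below are the most abundant ones at these starts, with nucleotides 2 to 8 of each tag in capitals.
miR-411-5p, RefSeq start: tAGTAGACcgtatagcgtac
miR-411-5p, 1 nt before: aTAGTAGAccgtatagcgta
miR-382-3p, 2 nt before: aATCATTCacggacaacacttt
miR-496a-3p, 2 nt after: aGTATTACatggccaatctcc

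The sequenced miR-382-3p thus had AUCAUUC at nucleotides 2 to 8, where the RefSeq sequence has CAUUCAC. As labelled, the start of miR-495-3p separated the time courses. Its RefSeq start held 0% to 60.5% of reads per library in the first (median 27.8%) and 80.5% to 88.4% in the second (median 85.1%). Most other reads began 1 nt further in, and the 0% rests on 28 reads in 6h-1. miR-300-3p, with a most used start at 47.9% of reads, began 4 nt further in for 23.9% to 54.2% of reads per library in the first and 8.32% to 15.7% in the second. With NT-1 and NT-2 exchanged both ranges overlapped, as NT-1 had 27.3% and NT-2 83.1% for miR-495-3p, and 32.6% and 14.0% for miR-300-3p. Starts of other arms separated the time courses as labelled too. In miR-369-3p, for example, the start 1 nt before the most used one held 0% to 2.38% in the first and 5.17% to 11.7% in the second. These values describe the 6 libraries of each time course, with no test.

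The second comparison set each time after ECS against the untreated mice, the question of whether a burst of neuronal activity changed the members. At none of the 5 times did an arm of the cluster pass the adjusted threshold in edgeR's quasi-likelihood test, nor did any in the F test over the 6 time points. The 5 comparisons share the 2 NT libraries. None of the 469 arms passed either in that test, a background of 0%. At an unadjusted p under 0.05 the cluster had 0, 0, 0, 1 and 0 arms at the 5 times in order, against 1.92%, 0.426%, 2.13%, 1.92% and 1.49% of all arms, and 0 in the F test against 2.77%. With the time course as a block the counts were 1, 0, 1, 5 and 0, against 5.54%, 2.56%, 5.12%, 6.82% and 5.12% of all arms, and 1 in the F test, against 6.40%, and none passed the adjusted threshold. DESeq2 without the block called 0 arms of the cluster at each time, and 1, 0, 2, 0 and 0 of all arms. It gave the cluster 1, 0, 2, 5 and 2 arms at an unadjusted p under 0.05, against 4.69%, 2.35%, 6.40%, 5.76% and 5.33% of all arms. A p that misses the threshold does not show that the values did not differ.

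At 0.5 h the smallest unadjusted p-values belonged to miR-411-3p, miR-376a-3p and miR-666-5p. miR-411-3p had 238 CPM in NT-1 and 34.3 in NT-2 against 31.1 in 0.5h-1 and 8.21 in 0.5h-2 (log2 fold change -2.79, SE 1.37). miR-376a-3p had 1432 and 1996 CPM against 8494 and 6653 CPM (log2 fold change 2.14, SE 1.26). For both, the 2 groups did not overlap, but the edgeR adjusted p was 0.988 as for all 3. miR-666-5p had 1837 and 318 CPM against 382 and 164 CPM, with overlap and much of the difference in NT-1.

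At 1 h, miR-329-3p, miR-666-3p and miR-411-3p led, all of them minor arms of their hairpins. miR-329-3p, with 51 reads in all, had 0 and 0.512 CPM in NT against 4.69 and 1.03 CPM. miR-666-3p had 20.6 and 3.07 CPM in NT against 3.52 and 2.31 CPM, with overlap. miR-411-3p had 72.3 and 11.8 CPM, and its fold change of -1.69 (SE 1.31) turned to 0.33 without NT-1. The smallest of the 3 unadjusted p-values was 0.118 (edgeR quasi-likelihood test, adjusted p = 1.00).

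At 3 h the leading arms were miR-329-3p, miR-496a-3p and miR-323-3p. miR-496a-3p had 86.0 and 67.9 CPM in NT against 897 in 3h-1 and 36.2 in 3h-2 (log2 fold change 2.60, SE 1.38), and without 3h-1 the fold change was -1.43. miR-323-3p had 175 and 580.1 CPM against 2335 and 482 CPM, so the second time course went slightly down (log2 fold change 1.90, SE 1.12). miR-329-3p had 3.13 and 4.70 CPM, from 4 and 13 reads.

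At 6 h the 3 leading arms in the fit without the block were the 3p arms of the miR-376 family. Their hairpins lie close together in the middle of the cluster. With the time course as a block, miR-668-3p, which was lower at 6 h, ranked between miR-376c-3p and miR-376a-3p. Its log2 fold change there was -2.11 (SE 0.83, unadjusted p = 0.0230, edgeR quasi-likelihood test). miR-376c-3p had 16.8 and 54.3 CPM in NT against 112 and 248 CPM (log2 fold change 2.33, SE 1.03, unadjusted p = 0.0419 and adjusted p = 0.994, edgeR quasi-likelihood test). miR-376a-3p had 10156 and 10897 CPM at 6 h against 1432 and 1996 CPM in NT (log2 fold change 2.62, SE 1.28). miR-376b-3p had 1154 and 1147 CPM against 147 and 210.1 CPM (log2 fold change 2.69, SE 1.32). In all 3 both 6 h libraries lay above both NT libraries, and within each time course the 6 h library lay above its own NT library. The 6 h libraries had the fewest miRNA reads of their time courses, 439336 and 1321437. As a part of the accepted reads, miRNAs were lowest in 6h-1, at 10.1%, and highest in 6h-2, at 69.6%. In 6h-1, 0.197% of the cluster's reads had 22 nt or more, against 1.30% to 8.69% in the rest of its time course. In 6h-2 it was 8.99%, against 21.5% to 32.1% in the rest of its time course. The 6h-2 library was also the highest of its time course for miR-411-5p, miR-379-5p and miR-410-3p, and the lowest for miR-541-5p and both miR-382 arms. The part of these traits in the 6 h values was not tested. None passed the adjusted threshold in edgeR's test, with an adjusted p of 0.994 without and 0.662 with the time course as a block. The 3 arms differ in sequence at the seed, as their most abundant tags show.
miR-376a-3p: aTCGTAGAggaaaatccacgt
miR-376b-3p: aTCATAGAggaacatccactt
miR-376c-3p: aACATAGAggaaatttcacgt

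At 24 h miR-411-3p, miR-666-3p and miR-666-5p had the smallest p-values, all with negative fold changes, and all 3 had their highest value of the 12 libraries in NT-1. miR-411-3p had 19.1 and 18.0 CPM at 24 h (log2 fold change -2.87, SE 1.37). miR-666-3p had 2.33 and 1.70 CPM, and miR-666-5p 415 and 193 CPM. The adjusted p was 0.989 for each in edgeR's test. In the F test over the 6 time points the smallest unadjusted p-values were 0.120 for miR-300-5p, 0.170 for miR-376c-3p and 0.179 for miR-411-3p (edgeR quasi-likelihood test, adjusted p = 1.00). Without NT-1, no arm of the cluster had an unadjusted p under 0.05 at any of the 5 times.

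Other miRNAs of the Dlk1-Dio3 locus were counted beside the cluster, among them miR-134, miR-485 and miR-1197, which lie within its interval. Of 21 names on that list, 20 had reads, 797728 in all, and 26 arms of 16 miRNAs were tested. Between the time courses 4 arms were higher (miR-433-3p, miR-127-3p, miR-673-3p and miR-770-3p) and 1 was lower (miR-134-5p), with a median log2 fold change of 0.47, beside 8 and 3 of the 47 arms of the cluster with a median of 0.18. After ECS none of the 26 passed the adjusted threshold at any time, and 1, 0, 1, 1 and 1 had an unadjusted p under 0.05. The difference between the list and the cluster was not tested.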

How the data were processed

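Size-selected small RNA was cloned and sequenced on an Illumina instrument, and the authors processed the output with their miR-Intess pipeline. The deposited files give each distinct tag with its read count in 1 library, unaligned and not normalized, and the tools that trimmed the reads are not given in the sources used here. All annotated miRNA hairpins were cut from GRCm38 with GENCODE release M21 (1174 loci, 1087 names). A tag of at least 18 nt was assigned where all of it matched a hairpin exactly, and a tag shared by several miRNAs was split equally among them. Edited tags and tags with added 3′ nucleotides were therefore not counted, except that the first 18 nt alone were matched in 1 alternative. Identical tags from PCR cannot be told from separate molecules, so intervals and limits cover counting error only.

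Arms that reached 10 counts in 2 or more libraries were fitted in R 4.3.3 with edgeR 4.0.16 (quasi-likelihood test, TMM, Benjamini-Hochberg over all 469 arms, threshold 0.05). Time courses were compared with time point as a term, and each time after ECS was compared with NT in a fit of all 6 groups of 2 libraries. 5p shares were compared for miRNAs with at least 50 reads in all and 10 in every library by an exact permutation test coded with NumPy 2.4.6. Spearman's rho and the Wilson intervals were computed with SciPy 1.17.1. The replicate number in the labels marks the time course in the study's description, and libraries with the same number deviated together (correlation 0.310 to 0.785, mean 0.521, over 15 pairs of time points, and 0.310 to 0.656 for NT with each other time point). No library was a copy of another, as the lowest chi-square per degree of freedom over 66 pairs was 33.2.

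The alternatives were DESeq2 1.42.0, its size factors, total miRNA counts, no filter or 10 counts in every library, tags of 1 miRNA only, the first 18 nt, no time point term, the replicate block, only the groups compared, and each library left out. DESeq2 with the block, the block with total counts, and NT-1 and NT-2 exchanged between the time courses were added after seeing the data. The members, the list of other Dlk1-Dio3 miRNAs and the marker lists were chosen with earlier results of these data known. Named were the 12 arms with the highest mean share of miRNA reads, every arm past the threshold between time courses, the 3 arms with the smallest unadjusted p where none passed after ECS, and the 3 members with the largest difference in 5p share. The fitting steps were tested on simulated data. RefSeq mature sequences (GRCm38.p6) were found for 50 of the 53 arms with at least 10 counts.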

Additional observations from a re-analysis of the deposited data

Results flagged for a closer look

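Among 26 groups of 6 libraries searched for a library far from the rest, 3 had one, where chance alone marks about 1 in 20. The groups are measures of the same libraries and not independent, so the 3 cannot be set against that rate. miR-541-5p had 2923 CPM in 6h-1, against 835 to 1482 CPM in the other libraries of the first time course. miR-300-3p had 1095 CPM in NT-1, against 430.0 to 518 CPM in the others, and miR-666-5p had 1837 CPM in NT-1, against 382 to 824 CPM. NT-1 is also the library with 51.4% of its miRNA reads at 18 or 19 nt, and the part of that in these values was not tested.

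miR-382-3p moved in opposite directions in the 2 time courses. In the first, all 5 libraries after ECS lay above NT-1 at 352 CPM, and in the second all 5 lay below NT-2 at 2477 CPM. The pattern rests on which untreated library belongs to which time course, where the study's composition table and the sample labels differ in order and the labels were kept. This difference was not tested.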

How the results depend on the processing

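The count of 11 arms that differed between the time courses was 20 with DESeq2 (47.3% of all arms), 6 under the stricter filter of 10 counts per library (40.1%), where fewer were tested, and 0 of all 469 with NT-1 and NT-2 exchanged between the time courses. It ran from 7 (19.8% of all arms, without 1h-1) to 15 with each library left out, beside 11 (32.4%) as reported. The share of all arms for the count of 15 is not given here, so that count cannot be set against its background. The cluster's share of all accepted reads was 0.697% in the first and 0.902% in the second time course. With single libraries left out, the log2 fold change of miR-411-3p at 1 h ran from -3.56 to 0.33 (without NT-1), and that of miR-496a-3p at 3 h from -1.43 (without 3h-1) to 3.14, and the cause was not tested. The time course difference of miR-299a-3p was lost under 11 other alternatives and that of miR-494-3p under 7, while miR-1193-5p lost its call without 1h-1 or 1h-2 and miR-377-3p without 1h-1. Every alternative gave 0 arms of the cluster past the adjusted threshold after ECS, the replicate block included. For the 5p share every alternative gave 0 members, where the smallest p of the exact test left a pass nearly out of reach. The groups held 2 libraries each.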
